A study of Mus musculus with 9 samples.

Results

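Ependymal and motile cilia genes were followed across 3 brain regions and 3 feeding regimens of the mouse. The set lists 10 genes: Foxj1, Ccdc153, Tmem212, Dynlrb2, Rarres2, Ak7, Tekt1, Dnali1, Rsph1 and Mia. Members were taken as the array probes whose RefSeq accession maps to one of these symbols, whatever their signal. Of the 10 genes, 7 had a named probe among the 16355 genes named on the array. These were Foxj1, Dynlrb2, Rarres2, Tekt1, Dnali1, Rsph1 and Mia, with 11 probes in all, and all 7 entered the fit of 12616 genes. Ccdc153, Tmem212 and Ak7 are named here without values.

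Ependymal cells line the ventricles of the brain and move cerebrospinal fluid with tufts of motile cilia. A motile cilium is built on doublet microtubules, to which inner and outer dynein arms, radial spokes and a central pair are attached. In multiciliated cells, the forkhead factor FOXJ1 and the RFX factors are known to switch on the genes of this axoneme. The walls of the third ventricle, which runs through the hypothalamus, also carry tanycytes, and the choroid plexus is an epithelium continuous with the ependyma.

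RNA came from male wild-type C57BL/6J mice of 8 to 9 weeks, killed on day 8 of the regimen after perfusion with saline. The AD mice fed ad libitum, the RFR mice went through repeated fasting and refeeding, and the CR mice were given a set part of what the RFR mice ate. Amygdala, hypothalamus and prefrontal cortex were dissected from coronal slices, and equal amounts of RNA from 4 mice were pooled for each of the 9 arrays. There was 1 single-colour array for each region and diet, so a region had 3 arrays (1 for each diet) and a diet within a region had no replicate. Since 4 mice of each group were killed per the labels, the 3 regions of a diet are taken to come from the same animals. Tests between regions rest on 3 pools, whose separate animals cannot be seen.

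Levels are log2 processed signals from which the 75th percentile of each array was subtracted, so that a level of 0 equals that percentile. On the 9 arrays, 59.8% to 69.6% of the 43379 noncontrol spots were well above background. The labelled regions were checked against defining genes. The hypothalamic peptide genes Hcrt, Pmch, Oxt, Avp and Agrp were higher in hypothalamus than in both other regions, and Sim1 higher than in prefrontal cortex only. The cortical genes Tbr1, Fezf2, Lamp5 and Cux2 were called lower in hypothalamus and in amygdala than in prefrontal cortex, and Rorb differed in neither comparison past the threshold. Of 6 genes of amygdala neurons, 4 were called higher in amygdala than in hypothalamus and 4 higher than in prefrontal cortex, while Tac2 was higher in hypothalamus than in amygdala (0.93) and Rspo2 lower in amygdala than in prefrontal cortex (-0.69). The amygdala arrays also held hypothalamic peptides above prefrontal cortex, with Avp 6.87 and Oxt 3.73 log2 units higher. The arrays lay on 3 slides. The AD arrays and the RFR prefrontal cortex array shared slide 1, the RFR amygdala and hypothalamus arrays and the CR hypothalamus and prefrontal cortex arrays shared slide 2, and the CR amygdala array was alone on slide 3.

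All 7 measured members were higher in hypothalamus than in amygdala and than in prefrontal cortex. The difference from amygdala ran from 1.95 log2 units for Rsph1 to 4.96 for Dnali1, and that from prefrontal cortex from 3.10 for Dynlrb2 to 3.64 for Mia, with Dnali1 measured on no prefrontal cortex array. In each of the 7 genes the lowest hypothalamus array lay above the highest of the 6 other arrays. Dnali1 entered the fit, which needed at least 3 arrays well above background, only through its hypothalamus arrays. Its direction was thus set in advance and lends no support to these counts. Over all genes, 19.6% showed this separation, 15.9% were called higher in hypothalamus than in amygdala and 26.7% higher than in prefrontal cortex (limma, Benjamini-Hochberg adjusted p under 0.05). In bulk tissue, fewer cells of a type and less RNA per cell cannot be told apart.

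**Figure D1:**
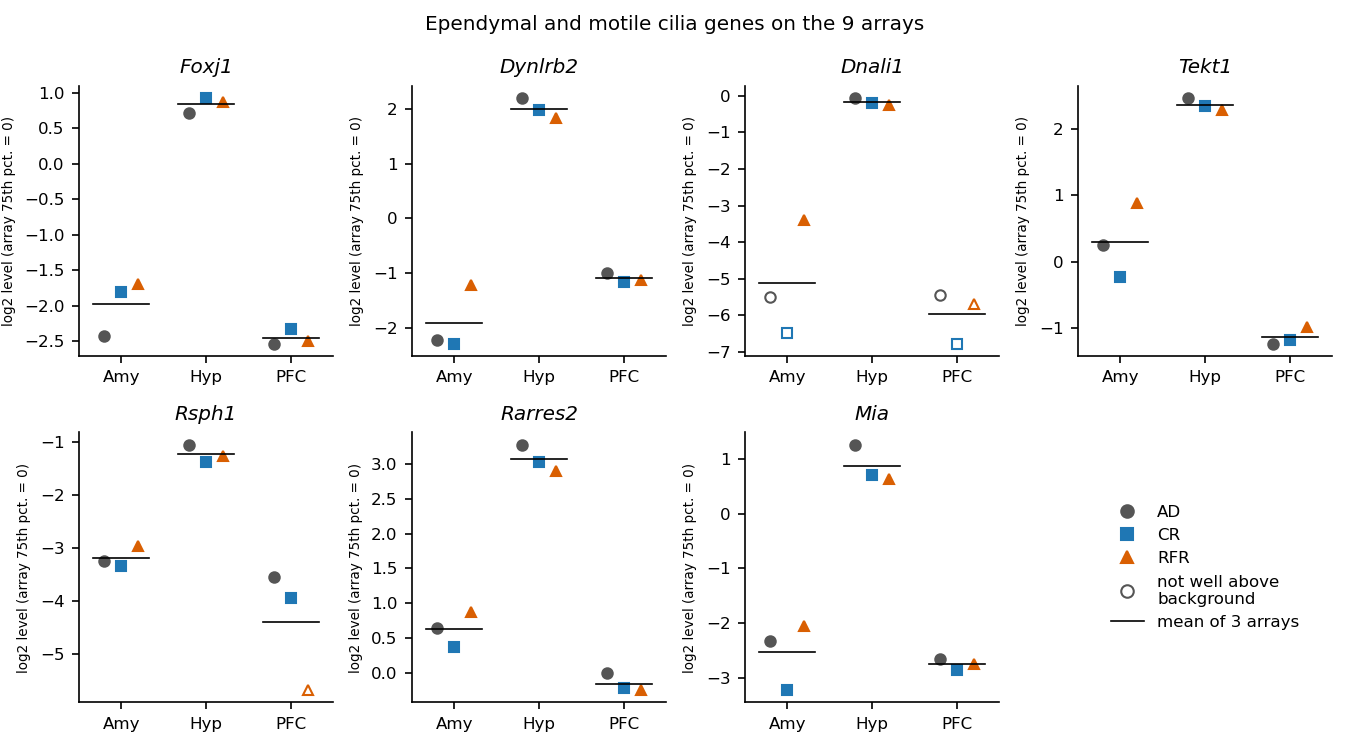
Levels of the 7 measured members on each array (log2 processed signal, array 75th percentile at 0) in amygdala (Amy), hypothalamus (Hyp) and prefrontal cortex (PFC), by diet, with the mean of the 3 arrays of a region as a line and open symbols where the spot was not well above background. The hypothalamus arrays stand above all others in every panel, and the RFR array is the highest of the 3 amygdala arrays.

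Foxj1 encodes the forkhead factor that drives motile ciliogenesis. On the AD, CR and RFR arrays, in that order, its levels were 0.72, 0.92 and 0.87 in hypothalamus. They were -2.42, -1.81 and -1.70 in amygdala and -2.53, -2.32 and -2.49 in prefrontal cortex. The hypothalamus arrays stood apart, and the amygdala and prefrontal cortex arrays overlapped in part. Foxj1 was 2.81 ± 0.14 (SE) log2 units higher in hypothalamus than in amygdala (7.02-fold, adjusted p = 4.3e-05) and 3.29 ± 0.14 higher than in prefrontal cortex (9.75-fold, adjusted p = 6.6e-06). Amygdala and prefrontal cortex differed by 0.47 ± 0.14, with an adjusted p of 0.058.

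Dynlrb2 and Dnali1 encode dynein chains. Dynlrb2 is a roadblock-type dynein light chain, and its levels in hypothalamus were 2.20, 1.98 and 1.84 on the AD, CR and RFR arrays. In amygdala they were -2.23, -2.29 and -1.23, and in prefrontal cortex -0.995, -1.16 and -1.12. Dynlrb2 was the single member with a lower mean in amygdala than in prefrontal cortex. The hypothalamus exceeded amygdala by 3.92 ± 0.26 log2 units (15.2-fold, adjusted p = 1.3e-04) and prefrontal cortex by 3.10 ± 0.26 (8.58-fold, adjusted p = 1.0e-04). The difference of amygdala from prefrontal cortex was -0.82 ± 0.26 (adjusted p = 0.068). A second probe of the gene gave 4.04 and 3.41 for the 2 hypothalamus differences. Its widely expressed paralogue Dynlrb1 differed by -0.02 between hypothalamus and amygdala (adjusted p = 0.93) and by 0.02 between hypothalamus and prefrontal cortex (adjusted p = 0.90).

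Dnali1, a light intermediate chain of the axonemal inner dynein arm, was well above background on 4 of the 9 arrays. It met the filter of the fit, at least 3 such arrays, only through the hypothalamus arrays. Its levels in hypothalamus were -0.06, -0.18 and -0.25, and in amygdala -3.38 on the RFR array, the only amygdala array that measured it. No prefrontal cortex array measured it. Dnali1 in hypothalamus exceeded prefrontal cortex at least 36.5-fold. This bound sets the hypothalamus mean against the higher, on each dim array, of the probe's own value and the lowest signal well above background. The bound has no test of its own. The limma fit, which uses dim values on all 3 prefrontal cortex arrays, gave an adjusted p of 1.9e-04. The fitted difference from amygdala was 4.96 ± 0.56 (adjusted p = 0.0010) and uses dim values on 2 amygdala arrays. On the RFR arrays, where both regions were measured, the hypothalamus was 3.13 log2 units (8.75-fold) higher.

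Tekt1 and Rsph1 encode structural parts of the axoneme. Tekt1 is a tektin, a filament protein of the doublet microtubules. Its levels were 2.46, 2.35 and 2.28 in hypothalamus, 0.25, -0.22 and 0.88 in amygdala and -1.23, -1.17 and -0.97 in prefrontal cortex. The 3 regions did not overlap, and each step was past the threshold. Tekt1 in hypothalamus exceeded amygdala by 2.06 ± 0.22 log2 units (4.17-fold, adjusted p = 7.1e-04) and prefrontal cortex by 3.49 ± 0.22 (11.2-fold, adjusted p = 2.5e-05). Amygdala exceeded prefrontal cortex by 1.43 ± 0.22 (2.69-fold, adjusted p = 0.0040). A second probe gave 2.10, 3.56 and 1.46 for these differences.

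Rsph1 is a radial spoke head protein with hypothalamus levels of -1.04, -1.38 and -1.26. It had -3.24, -3.33 and -2.96 in amygdala and -3.54, -3.94 and -5.68 in prefrontal cortex. The last of these, the RFR array, was not well above background and set the spread of the gene. Rsph1 was 1.95 ± 0.45 log2 units higher in hypothalamus than in amygdala (3.86-fold, adjusted p = 0.017) and 3.16 ± 0.45 higher than in prefrontal cortex (adjusted p = 0.0012). The call against amygdala ended when the AD pool (1.83, adjusted p = 0.068), the CR pool (1.95, adjusted p = 0.081) or the CR amygdala array (1.80, adjusted p = 0.071) was left out.

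Rarres2 and Mia encode secreted proteins. Rarres2 encodes chemerin, a chemoattractant. Its levels were 3.28, 3.03 and 2.90 in hypothalamus, 0.64, 0.37 and 0.87 in amygdala and -0.01, -0.22 and -0.25 in prefrontal cortex. As for Tekt1, the 3 regions did not overlap. The hypothalamus exceeded amygdala by 2.44 ± 0.15 log2 units (5.44-fold, adjusted p = 8.3e-05) and prefrontal cortex by 3.23 ± 0.15 (9.37-fold, adjusted p = 7.4e-06). Amygdala exceeded prefrontal cortex by 0.79 ± 0.15 (1.72-fold, adjusted p = 0.0098), a call that ended without the RFR pool (0.62, adjusted p = 0.074) and with slide as a term (0.84, adjusted p = 0.076).

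Mia, a small secreted protein first described in melanoma and cartilage, was read by 3 probes. The probe used had levels of 1.27, 0.71 and 0.65 in hypothalamus, -2.33, -3.23 and -2.05 in amygdala and -2.67, -2.87 and -2.75 in prefrontal cortex. The hypothalamus arrays stood apart, and the other regions overlapped. The hypothalamus exceeded amygdala by 3.41 ± 0.24 log2 units (10.6-fold, adjusted p = 1.5e-04) and prefrontal cortex by 3.64 ± 0.24 (12.4-fold, adjusted p = 3.3e-05). The 3 probes gave 3.28 to 3.41 against amygdala and 3.64 to 3.68 against prefrontal cortex. Amygdala and prefrontal cortex differed by 0.23 ± 0.24 (adjusted p = 0.56).

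Between amygdala and prefrontal cortex, 2 of the 7 members (Rarres2 and Tekt1) were called higher in amygdala and 0 lower. Of all genes, 12.2% were called higher and 10.2% lower. In order of level, hypothalamus came first for each member. The neighbours amygdala and prefrontal cortex did not differ past the threshold for Foxj1, Dynlrb2, Dnali1, Rsph1 and Mia.

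**Figure D2:**
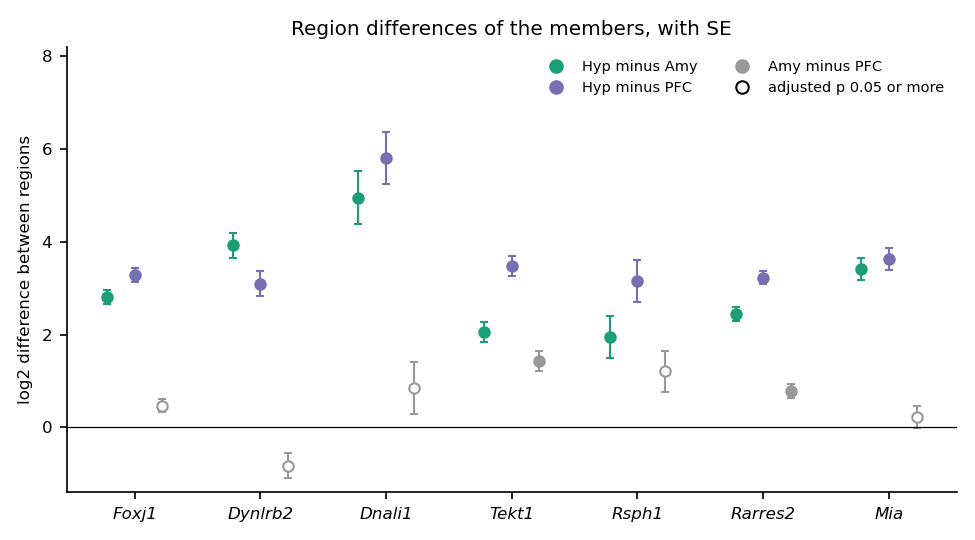
Region differences of the 7 members in log2 units, fitted over the 9 arrays, with SE as bars and open symbols where the adjusted p was 0.05 or more. Both hypothalamus differences are filled and above 1.9 for every gene, while the difference of amygdala from prefrontal cortex is filled for Tekt1 and Rarres2.

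The RFX factors bind the X-box, and the bases before the start of the member genes were searched for it, since the measured members were high in the same region. Sequences are those of RefSeq on GRCm38.p6, from 250 bases before to 50 after each gene's start. The X-box was searched as GTNNCC followed after 3 free bases by GNNAC, together with its first arm GTTGCC, which overlaps it, and the forkhead motif GTAAACA, each on both strands. The table held promoters of 7 of the 10 genes: Ccdc153, Tmem212, Dynlrb2, Ak7, Tekt1, Dnali1 and Mia. Other spacings between the arms of the X-box were not searched, so a promoter counted without it may hold one of another spacing. An X-box of the searched form was found in 1 of the 7 (Tekt1), the arm in 3 (Tekt1, Dynlrb2 and Ccdc153) and the forkhead motif in 1 (Ak7). Over the 27025 genes of the table, 5.26% held the X-box in a promoter, 14.1% the arm and 4.05% the forkhead motif. Over all 32851 promoters the shares were 4.62%, 12.5% and 3.65%. A match is a description of the letters and not a bound site.

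The 250 bases before the start are shown for Tekt1, the member with an X-box of the searched form, at chr11:72361883-72362132 on the minus strand. They are shown too for Dynlrb2, the member compared with a paralogue, at chr8:116504765-116505014 on the plus strand. Both are written 5′ to 3′ with matches in capitals. The X-box of Tekt1 begins 15 bases before the start and the arm of Dynlrb2 begins 51 bases before it.
Tekt1: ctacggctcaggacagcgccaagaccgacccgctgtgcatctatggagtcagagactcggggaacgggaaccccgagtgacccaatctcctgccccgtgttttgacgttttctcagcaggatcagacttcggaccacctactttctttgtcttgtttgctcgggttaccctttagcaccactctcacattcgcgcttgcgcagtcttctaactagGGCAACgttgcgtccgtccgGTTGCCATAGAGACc
Dynlrb2: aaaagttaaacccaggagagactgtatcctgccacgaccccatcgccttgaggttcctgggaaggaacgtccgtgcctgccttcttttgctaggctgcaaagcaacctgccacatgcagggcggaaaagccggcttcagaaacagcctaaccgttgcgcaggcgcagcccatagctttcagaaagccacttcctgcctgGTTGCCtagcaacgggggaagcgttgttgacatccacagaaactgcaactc

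Of the listed axonemal genes outside the members, 68 had a promoter in the table, and 22 of these (32.4%) held an X-box and 34 (50%) the arm. In the list for intraflagellar transport, the BBSome and the primary cilium, 5 of 24 genes (20.8%) held an X-box and 11 (45.8%) the arm. Of the axonemal and other ependymal genes that were fitted, 9 of 12 with an X-box of the searched form and 19 of 30 without that form were called higher in hypothalamus than in amygdala. The medians were 0.86 and 0.99 log2 units. Ccdc151 (0.28, adjusted p = 0.24) and Dnaaf2 (0.13, adjusted p = 0.42) held an X-box and were not past the threshold. To show the letters, the matches of 5 genes that were higher in hypothalamus are given with up to 8 bases on each side, the matched letters in capitals. They lie at chr8:110266948-110266976 (plus strand), chr1:69826859-69826888 (plus strand), chr16:33056187-33056213 (minus strand), chr3:106001498-106001525 (minus strand) and chr15:89379280-89379309 (minus strand).
Hydin: actctgcgGTTGCTGTGGCAACagatggt
Spag16: ggcaacgcGTTGCCGTAGTAACtgcggacg
Iqcg: cgcgacgcGTTGCCATAGCTACcgatt
Pifo: gcggttccGTTCCCTTGGCAACgtagta
Odf3b: gttttccgGTGCCCTGGGATACgcgttagc

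Other genes of the axoneme were taken from 7 lists by structure, which name 83 genes outside the members. Of the 39 that were fitted, 25 were higher and 3 lower in hypothalamus than in amygdala, with a median difference of 0.65 log2 units. Against prefrontal cortex 29 were higher and 1 lower, with a median of 0.87. Dnah11, Wdr63 and Dnaaf1, counted as higher in each case, were well above background on the hypothalamus arrays only. They passed the filter through those arrays, so their direction was set in advance and lends no support. Spag16, also counted as higher, was well above background on 2 amygdala arrays and no prefrontal cortex array. It too met the filter only with its hypothalamus arrays and lends no support. Over all genes, 13.5% were called lower in hypothalamus than in amygdala and 21.3% lower than in prefrontal cortex. The medians of the 7 members were 2.81 and 3.29.

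Outer dynein arm genes were higher in hypothalamus than in amygdala for 2 of 4 fitted genes. Dnah11, an outer arm heavy chain, was not well above background in amygdala or prefrontal cortex and was at least 9.77-fold and at least 8.32-fold higher in hypothalamus. Dnaic1, an intermediate chain, was 0.73 and 1.39 log2 units higher (adjusted p = 0.0064 and 1.6e-04). Both fitted inner arm genes were higher, though Wdr63 entered the fit through the hypothalamus arrays alone. Wdr63 exceeded amygdala, where no array measured it, at least 5.20-fold, and Wdr78 rose by 0.65 (adjusted p = 0.012). Of 7 fitted factors that assemble dynein arms, 4 were higher than in amygdala, with Dnaaf1 at least 6.36-fold higher and Zmynd10 0.61 higher (adjusted p = 0.033).

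Among the radial spoke genes, 4 of 6 were higher and 1 was lower in hypothalamus than in amygdala. Iqub (1.36) and Ropn1l (1.09) were higher. Rsph6a, which no hypothalamus array measured, was lower by at least 1.25-fold. The fitted difference, which uses dim values on all 3 hypothalamus arrays, was -0.82 (adjusted p = 0.038). In the central pair list, Hydin was 1.73 and 2.96 log2 units higher than in amygdala and prefrontal cortex, and Spag16 was 3.71 higher than in amygdala, where 2 of 3 arrays measured it, and exceeded prefrontal cortex, where none did, by at least 8.74-fold. The 2 related genes Spag6 and Spag6l moved apart. Spag6l was 0.71 and 1.03 higher in hypothalamus, while Spag6 was measured on no hypothalamus array and was lower by at least 2.78-fold than in amygdala and at least 15.9-fold than in prefrontal cortex. Probes of such close relatives may share signal.

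Of 7 fitted genes of the nexin-dynein regulatory complex and axonemal ruler, 5 were higher than in amygdala, led by Iqcg at 2.04 (adjusted p = 1.0e-04) and Drc3 at 1.105 (adjusted p = 4.5e-04). Of 9 fitted proteins of the doublet microtubules, 5 were higher than in amygdala. Cfap52 was 3.49 higher, Cfap161 2.66 and Tekt2, a second tektin, 1.88.

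Of 12 other fitted ependymal genes, 10 were higher than in amygdala and 11 higher than in prefrontal cortex, with medians of 2.26 and 3.44. Odf3b, Cfap65 and Pifo were 3.36, 2.63 and 2.38 log2 units higher than in amygdala. Spata17 was well above background on the hypothalamus arrays only and exceeded amygdala at least 4.29-fold. It passed the filter through those arrays, so its direction was set in advance and lends no support to the counts. Nek5, a NIMA-related kinase, was 3.96 higher, with 2 of 3 amygdala arrays well above background. Hdc, at 4.49 the largest difference of the list, is also the histamine-forming enzyme of hypothalamic neurons.

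Of the 6 fitted factors of the multiciliated cell programme, Rfx2 was 0.89 and 1.65 log2 units higher in hypothalamus than in amygdala and prefrontal cortex (1 of 3 prefrontal cortex arrays well above background), and Rfx4 was 0.65 and 1.06 higher, all past the threshold. Trp73 (0.18), E2f5 (-0.08), Tfdp1 (-0.11) and E2f4 (-0.33) were not past it against amygdala. Against prefrontal cortex E2f4 was lower (-0.58, adjusted p = 0.0087), and Trp73 (0.08), E2f5 (0.25) and Tfdp1 (-0.05) were not past the threshold. Rfx3 and Myb were on the array but too dim to be fitted.

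Genes of intraflagellar transport, the BBSome and the primary cilium, which most brain cells carry as a single non-motile cilium, had a median of 0.30 against amygdala and 0.42 against prefrontal cortex. Of the 26 fitted, 8 were higher and 1 lower than in amygdala, and 14 were higher and 3 lower than in prefrontal cortex. The largest difference from amygdala was 0.73, so each of the 7 members lay above the whole list. Dync2li1, a chain of the transport dynein, was 0.73 higher and Bbs9, a BBSome subunit, 0.54.

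**Figure D3:**
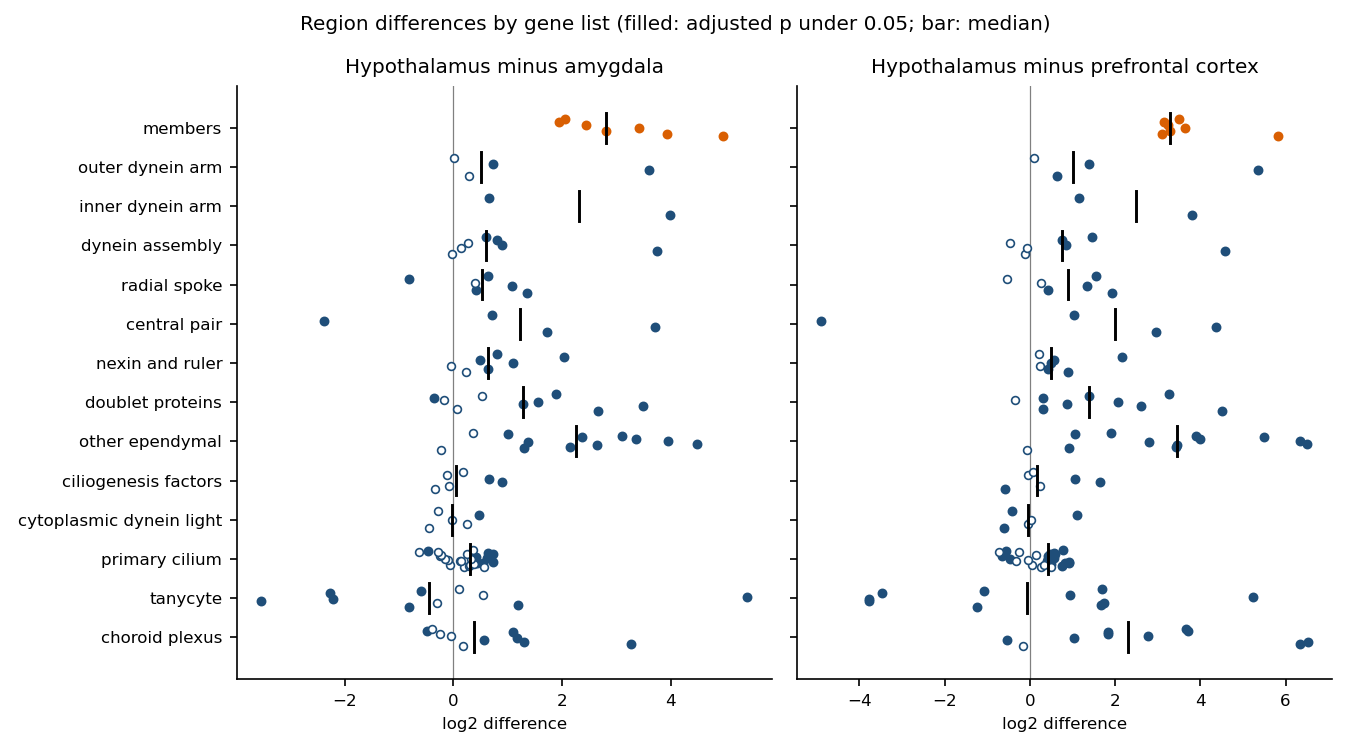
Differences of hypothalamus from amygdala (left) and from prefrontal cortex (right) in log2 units, 1 point for each fitted gene of a list, filled where the adjusted p was under 0.05, with the list median as a bar. The members lie to the right of all primary cilium genes, and the axonemal and other ependymal lists reach as far as the members in part of their genes.

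Among light chains of cytoplasmic dynein, Dynlt1b was higher in hypothalamus than in amygdala (0.47, adjusted p = 0.020), and the other 4 fitted genes were not past the threshold. Of the chemerin receptors, Gpr1 was higher (0.83, adjusted p = 0.018) and Cmklr1 lower (-0.40, adjusted p = 0.023) in hypothalamus than in amygdala. Ccrl2 differed by 0.06 (adjusted p = 0.67).

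Markers of other cell types also differed between the regions, some higher and some lower in hypothalamus, and their part in the members' differences was not tested. Of 10 fitted tanycyte genes, 2 were higher in hypothalamus than in amygdala (Fndc3c1, measured on no amygdala array, at least 9.23-fold, and Cd59a 1.18), and 5 were lower, with Crym (-3.54), Lhx2 (-2.28) and Dio2 (-2.22) falling most. Against prefrontal cortex, 5 of the 10 tanycyte genes were higher and 5 lower, with a median of -0.07. Their summed signal relative to the 75th percentile was 7.13 to 8.24 in hypothalamus, 22.1 to 31.6 in amygdala and 41.2 to 43.5 in prefrontal cortex. A sum follows its brightest genes, and whether these genes mark tanycytes alone in the 3 regions was not tested. Of 10 fitted choroid plexus genes, 5 were higher and 1 lower in hypothalamus than in amygdala, and 8 were higher and 1 lower than in prefrontal cortex. Their summed signal was 16.5 to 21.7 in hypothalamus, 9.89 to 13.1 in amygdala and 13.8 to 17.6 in prefrontal cortex. Enpp2, which other cells also express, made up most of the prefrontal cortex sum. Without it, a choice made after the values were seen, the sum of the other 9 genes was 7.43 to 8.45 in hypothalamus, 3.22 to 4.81 in amygdala and 0.415 to 0.467 in prefrontal cortex. Clic6 was the brightest of these 9 genes, at 2.58, 2.67 and 2.48 on the AD, CR and RFR hypothalamus arrays, and made up most of the hypothalamus sum. The defining choroid plexus gene Ttr was not well above background on any prefrontal cortex array. Ttr was higher in amygdala than in hypothalamus on the AD (-3.47 against -4.15) and RFR arrays (-1.66 against -3.39). On the CR arrays Ttr was lower in amygdala (-3.945 against -2.69).

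Of 9 oligodendrocyte genes, 7 were higher in hypothalamus than in amygdala (median 0.70) and 9 higher than in prefrontal cortex (median 1.28). Their sum was 164 to 218 in hypothalamus, 102 to 146 in amygdala and 57.0 to 104 in prefrontal cortex. Of 6 fitted anterior pituitary genes, Cga, Tshb and Pomc were higher in hypothalamus than in both other regions. Their sum was 17.4 to 31.7 in hypothalamus, 1.35 to 4.65 in amygdala and 1.16 to 2.36 in prefrontal cortex. Of the 6 genes, 4 were well above background on the AD and CR hypothalamus arrays and 6 on the RFR array. In bulk tissue, pituitary and hypothalamic sources of these RNAs, Pomc among them, cannot be told apart. Of 10 astrocyte genes, 1 was higher and 1 lower in hypothalamus than in amygdala. Of 12 meningeal and fibroblast genes 0 were higher and 7 lower, of 11 endothelial and mural genes 0 and 4, of 8 general neuronal genes 0 and 4, and of 7 microglial genes 0 and 4.

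The members' summed signal was 20.6 to 25.3 on the hypothalamus arrays, 2.86 to 4.87 on the amygdala arrays and 2.16 to 2.36 on the prefrontal cortex arrays. Over the 9 arrays, the level of each member correlated with the mean of the other members well above background on at least 6 arrays, with Pearson's r between 0.89 (Rsph1) and 0.99 (Rarres2). The 9 points fall into hypothalamus and the rest, so r describes mainly that step. The genes outside the members with the highest r to their mean profile were Odf3b (0.996), Prph, Tkt, Hcrt, Spaca9, Hoxa9, Ciapin1 and Cbln1 (0.992), among 11622 genes compared. Hoxa9 was well above background on the 3 hypothalamus arrays only, so its r rests on dim values in the other regions. Hcrt encodes the orexins, Cbln1 a synaptic protein and Prph a neuronal filament. Of the genes compared, 352 had r above 0.95.

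Across the diets, no member was past the threshold in the fits over the 3 regions. Of all genes, 0% were called between CR and AD, 0.0159% between RFR and AD and 0.0159% between CR and RFR. Without the amygdala arrays, the genes called between CR and AD went from 0 to 1236. These 3 comparisons share arrays. Their p-values are too small, because the arrays of one diet are not independent of each other. At an unadjusted limma p under 0.05, 0 members and 2084 of the 12616 genes passed for CR against AD, 0 members and 776 genes for RFR, and 1 member (Dnali1, lower in CR, with dim values on 5 arrays) and 1864 genes for CR against RFR. Foxj1 was the member with a positive difference in both food-restricted groups in each region. It was 0.34 ± 0.14 higher in CR than in AD (adjusted p = 0.30) and 0.30 ± 0.14 higher in RFR than in AD (adjusted p = 0.85), and with slide as a term the first became -0.06. On the probes used, Dynlrb2, Rarres2, Rsph1 and Mia had lower values on the CR than on the AD array in each region. The share of all genes with this pattern is not given here. The fitted difference was -0.56 ± 0.24 for Mia (adjusted p = 0.31), -0.27 for Rsph1 (adjusted p = 0.78), -0.24 for Rarres2 (adjusted p = 0.44) and -0.15 for Dynlrb2 (adjusted p = 0.80). For Dynlrb2 the direction depended on the probe. Its second probe read 0.155 (CR) against -0.207 (AD) in hypothalamus and -3.44 against -3.53 in prefrontal cortex. Only in amygdala did that probe fall below AD under CR (-4.53 against -4.35).

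Within the amygdala, the RFR array was the highest of the 3 for all 7 members. Over all genes well above background on that array, 30.1% had their highest amygdala value there. The 6 members measured on both arrays were 0.23 to 1.00 log2 units higher on the RFR than on the AD array, with a median of 0.46 against -0.03 for all genes. Dynlrb2 had the largest difference at 1.00, followed by Foxj1 (0.72) and Tekt1 (0.63), and Rarres2 had the smallest (0.23). Dnali1 was well above background on the RFR array alone. No member reached 1 log2 unit, Dynlrb2 lying just short of it, and 1.47% of all genes did. In the authors' deposited table the same ratio of Dynlrb2 was 1.075 log2 units. The highest member value was 0.87 with all probes averaged, 0.76 with normexp and 0.94 with quantile scaling.

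The same genes were lower on the CR than on the RFR array of the amygdala, a comparison that shares the RFR array. The 6 differences ran from -0.11 for Foxj1 to -1.18 for Mia, with a median of -0.78 against -0.06 for all genes. At least 1 log2 unit was reached by Mia, Tekt1 (-1.10) and Dynlrb2 (-1.07), and by 2.16% of all genes. With all probes of a gene averaged, none of the 6 members reached 1 unit, and the lowest was -0.995. Between the CR and AD arrays, 5 of 6 members were lower (3 of 6 in the authors' deposited table, with a median of -0.049), the median was -0.18 against -0.11 for all genes, and no member passed 1 unit where 3.26% of all genes did. The 3 amygdala arrays lay on 3 different slides, so slide and diet are mixed in each of these comparisons and cannot be told apart.

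Choroid plexus genes differed between the same arrays. All 9 that were well above background on both the RFR and the AD amygdala array were higher on the RFR array, with a median of 0.69, and 4 exceeded 1 log2 unit (Calml4 2.24, Kcne2 1.94, Ttr 1.81 and Folr1 1.48). The defining genes Otx2 and F5 were not well above background on any amygdala array. All 10 measured on both were lower on the CR than on the RFR array. The part of choroid plexus in the members' amygdala differences was not tested. Between hypothalamus and amygdala, the choroid plexus genes had a median difference of 0.55 on the AD arrays (6 of 9 higher), 1.17 on the CR arrays (9 of 10 higher) and 0.04 on the RFR arrays (5 of 9 higher). The medians of the members were 2.89 (6 of 6 higher), 2.70 (6 of 6) and 2.57 (7 of 7).

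Anterior pituitary genes differed on the same amygdala arrays. The hormone genes Prl and Gh were well above background on the RFR array alone, where their values were 6.23 and 4.63 log2 units above those of the AD array. Cga, the common subunit of glycoprotein hormones, was 2.08 above a dim AD value, and Pomc, measured on both arrays, was 1.55 higher. Prl (adjusted p = 0.0018) and Gh (adjusted p = 0.015) were also the 2 genes called between RFR and AD over the 3 regions. The summed pituitary signal was 4.65 on the RFR amygdala array, 1.74 on the AD and 1.35 on the CR array. The part of pituitary RNA in the members' differences was not tested.

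Within the hypothalamus, the AD array lay on slide 1 and the CR and RFR arrays on slide 2. On the probes used, the AD array was the highest of the 3 for 6 of the 7 members, all but Foxj1, where 44.6% of all genes had their highest hypothalamus value on the AD array. The second Dynlrb2 probe was highest on the CR array (0.155, against -0.207 on the AD and -0.322 on the RFR array). Differences of CR from AD ran from -0.56 (Mia) to 0.20 (Foxj1) and those of RFR from AD from -0.62 (Mia) to 0.15 (Foxj1), each with a median of -0.22. Differences of CR from RFR ran from -0.11 to 0.15. No member passed 1 log2 unit, which 1.34%, 0.691% and 0.528% of all genes did between CR and AD, between RFR and AD and between CR and RFR. Choroid plexus genes had medians of 0.09 for CR against AD and -0.08 for RFR against AD.

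In the prefrontal cortex, members measured on both arrays differed by -0.40 to 0.21 between CR and AD and by -0.24 to 0.26 between RFR and AD. No member measured on both arrays passed 1 log2 unit, which 1.13%, 0.971% and 0.819% of all genes did between CR and AD, between RFR and AD and between CR and RFR. Rsph1 was not well above background on the RFR array. The difference between regions in a diet effect could not be tested with 1 array for each combination.

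**Figure D4:**
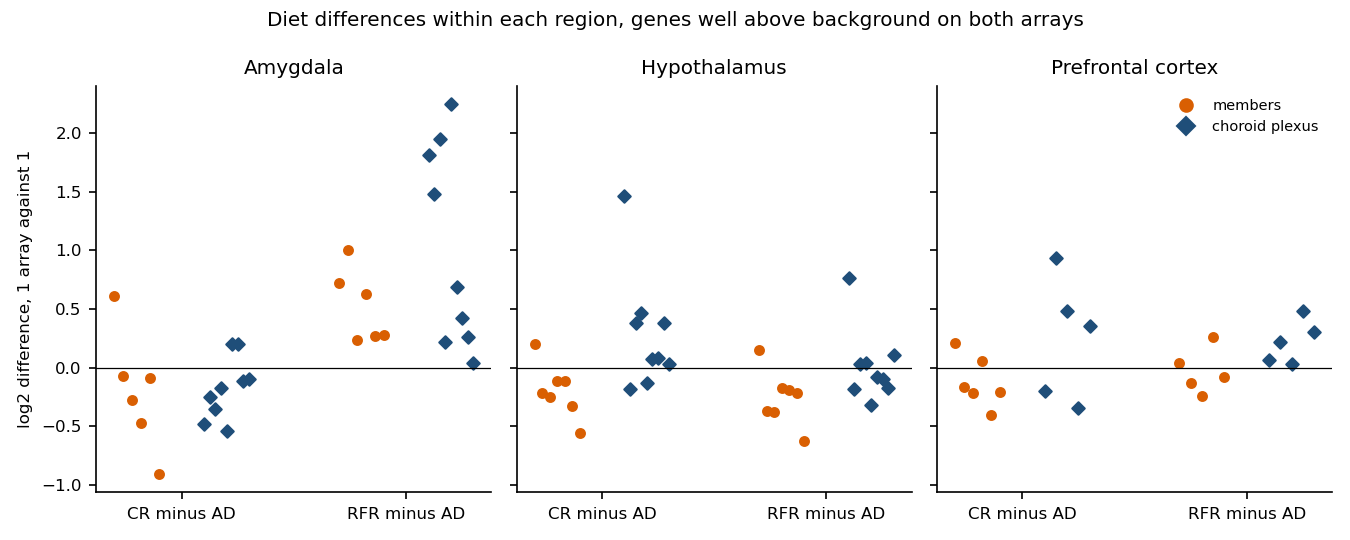
Differences of the CR and RFR arrays from the AD array of the same region in log2 units, 1 array against 1, for members (circles) and choroid plexus genes (diamonds) well above background on both arrays. On the RFR amygdala array both groups lie above 0, with members reaching 1.00 and choroid plexus genes 2.24, while in hypothalamus and prefrontal cortex the members lie between -0.62 and 0.26.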

How the data were processed

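RNA pooled from 4 mice was hybridised to 1 single-colour Agilent whole mouse genome array for each region and diet. The deposited intensity values were made with Agilent Feature Extraction, per the file headers, which subtracted the background and detrended each array, and the deposited flags mark spots well above background. The authors also deposited a table whose values are, as a comparison with the scanner signals showed, a ratio to the AD array of the same region. Its making is not given in the sources used here. The array's number of replicates limits the precision.

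Processed signals were taken as log2 minus each array's 75th percentile over noncontrol spots. Spots marked as outliers were dropped, and repeated spots of one probe averaged. Probes were named through RefSeq accessions: 22944 of 41174 probes had a symbol. A gene was read by its probe of highest mean over the 9 arrays, and kept when well above background on at least 3 arrays with values on at least 6. limma 3.58.1 in R 4.3.3 fitted region and diet to 12616 genes with 4 residual degrees of freedom, with Benjamini-Hochberg adjustment at 0.05. The code was tested on simulated data. Within a region there was 1 array against 1, so a difference of at least 1 log2 unit was counted without a test.

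Alternatives were normexp on the median spot and local background signals with an offset of 50, quantile scaling, other filters and probes, a floor for dim values, trended and robust variances, slide as a term, and leaving out each pool, region or the CR amygdala array. The members and all gene lists were chosen with earlier results of these data known. Besides the members, up to 6 genes of a list with the largest called region difference were named, any gene of the choroid plexus, tanycyte, pituitary, chemerin receptor, dynein light chain and ciliogenesis lists, and the 8 genes most like the members' mean profile. The results of 2 listed genes are not reported here.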

Additional observations from a re-analysis of the deposited data

Results flagged for a closer look

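For 2 members the difference of the RFR from the AD array ran in opposite directions in amygdala and hypothalamus. Dynlrb2 was 1.00 log2 units higher on the RFR array in amygdala and -0.37 in hypothalamus. Its second probe had levels of -3.60 (RFR) and -4.35 (AD) in amygdala and of -0.322 (RFR) and -0.207 (AD) in hypothalamus. Mia differed by 0.28 in amygdala and by -0.62 in hypothalamus. With 1 array against 1 in each region, neither difference between regions was tested.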

How the results depend on the processing

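The direction of all 7 members between hypothalamus and both other regions was kept under every alternative run, and each tested value was past the threshold except those of Rsph1 against amygdala, given above. For Dnali1, which met the filter only through the hypothalamus arrays, that direction lends no support. Of 323 recomputed region values of members, 299 stayed as they were, 7 became past the threshold, 5 fell short of it, 10 moved and 2 turned. The turned values were Mia between amygdala and prefrontal cortex, with -0.012 to 0.52 when a pool was left out, and Dnali1 within slide 1 (-0.043). Genes called between hypothalamus and amygdala numbered 1428 to 2962 without a pool, between hypothalamus and prefrontal cortex 3495 to 5232, and between amygdala and prefrontal cortex 895 to 2351, or 1397 with slide as a term. Each low end was without the RFR pool. Members called between amygdala and prefrontal cortex were 4 when all 9 arrays had to measure a gene or with trended and robust variances, and 1 with slide as a term.

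Of 285 recomputed diet values of members, 18 turned. With slide as a term, CR minus AD became -0.061 for Foxj1 and 0.12 for Tekt1, RFR minus AD -0.052 for Dynlrb2, and CR minus RFR -0.14 for Foxj1 and -0.30 for Rsph1. Without the CR amygdala array, CR minus AD became 0.016 for Dynlrb2 and 0.071 for Tekt1. With a region left out, RFR minus AD ran from -0.25 to 0.44 for Dynlrb2, from -0.22 to 0.96 for Dnali1, from -1.18 to 0.027 for Rsph1 and from -0.35 to 0.099 for Mia. CR minus RFR then ran from -0.030 to 0.11 for Foxj1, from -0.55 to 0.056 for Dynlrb2, from -0.24 to 0.081 for Rarres2 and from -0.24 to 0.81 for Rsph1. In the authors' table RFR minus AD was 0.10 and CR minus RFR -0.19 for Rsph1, and normexp gave CR minus RFR of -0.0012. Genes called between CR and AD (0) became 5 with slide as a term, 3 in the authors' table and 1 to 1236 without a region (1236 without amygdala). Genes called between RFR and AD (2) became 13 with slide, 5 in the authors' table, 0 when all 9 arrays had to measure a gene or with a floor, 1 with normexp, no filter or without the CR amygdala array, and 1 to 2 without a region. Genes called between CR and RFR (2) became 41 with normexp or trended and robust variances, 24 with the filter on all 9 arrays, 20 in the authors' table, 15 with a floor, 1 with no filter, 0 with slide, and 1 to 2 without a region. The causes were not tested.

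With normexp, genes of at least 1 log2 unit (CR against AD, then RFR against AD, then CR against RFR) fell to 142, 75 and 115 in amygdala, 71, 32 and 31 in hypothalamus and 56, 36 and 32 in prefrontal cortex, where the authors' table gave 75 for RFR against AD. The fit pairs the regions of a diet through its diet term. With region alone and no such pairing, 3314 genes were called between hypothalamus and amygdala, 5631 between hypothalamus and prefrontal cortex and 2414 between amygdala and prefrontal cortex, and the members called were 7, 7 and 2, as with it. Within a region and diet there is 1 array and no replicate number. Dim signal limits Dnali1 in amygdala and prefrontal cortex and Rsph1 on the RFR prefrontal cortex array.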
